A study of Mus musculus with 4 samples.

Results

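The genes described here encode the subunits of the transcription factor NF-κB and the proteins that hold it in check. They were the subunit genes Nfkb1, Nfkb2, Rel, Rela and Relb, the IκB genes Nfkbia, Nfkbib and Nfkbie, the nuclear IκB gene Nfkbiz, and Tnfaip3, which encodes A20. All probes whose only annotated gene symbol was 1 of these 10 were taken, which gave 11 of the 45281 probes on the array, for 9 of the 10 genes and of 19057 gene symbols in all. Nfkb1 was not analysed here. Nfkbia and Nfkbie had 2 probes each. Of the 11 probes, 10 lay above the background limit on all 4 arrays and were tested, and the dimmer Nfkbie probe lay below it on all 4.

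The RNA came from spleen cells sorted as marginal zone macrophages, phagocytes at the edge of the white pulp, by the gate CD11b low, F4/80-, I-Ab- and SIGN-R1+. All mice were on the BXD2 background, a recombinant inbred strain with spontaneous lupus-like autoimmunity, and were 2.5 months old. The controls were 2 arrays of PBS-injected BXD2 mice. Another array came from PBS-injected BXD2-Ifnar-/- mice, which lack the type I interferon receptor, and the last from BXD2 mice that received sLTβR-Fc, a soluble decoy for lymphotoxin, intravenously at 25 µg. Each array pooled the cells of 2 mice killed 10 hours after injection. A control Fc protein was not among the treatments analysed, so receptor blockade and other effects of the injected protein cannot be told apart.

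NF-κB is a dimer of Rel-family proteins that IκB proteins keep in the cytoplasm. In the canonical route, signals from Toll-like and TNF receptors lead to the destruction of IκB, and mostly RelA and c-Rel dimers enter the nucleus. In the noncanonical route, the lymphotoxin β receptor and related receptors stabilise the kinase NIK, the p100 product of Nfkb2 is cut to p52, and p52 enters the nucleus with RelB. The genes Nfkbia, Nfkbiz and Tnfaip3 are textbook targets of NF-κB itself, so that their products act as feedback on it.

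The promoters are shown because several of these genes are themselves known NF-κB targets. RefSeq promoter sequences (build GRCm38.p6) were at hand for 7 of the 10 genes, covering 10 annotated starts, and the 250 bases before each start were searched on both strands. A match to the κB consensus, the degenerate motif of Rel-family dimers, was found for 5 of the 7 genes (Nfkb2, Rel, Nfkbia, Nfkbie and Tnfaip3), and for 8.23% of all 27025 genes in the promoter table. No match was found for Rela or Nfkbib. Each line below gives the 120 bases before an annotated start, 5′ to 3′ on the gene's strand, with consensus matches in capitals. Overlapping matches run together in Rel, a further Tnfaip3 match begins before the bases shown and its end, their first bases, is left in lower case, and Nfkbib is given as a member without a match.
Nfkbia, chr12:55492648-55492767, minus strand: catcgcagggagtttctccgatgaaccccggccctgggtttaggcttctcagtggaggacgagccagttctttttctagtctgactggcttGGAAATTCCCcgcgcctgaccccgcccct
Tnfaip3, chr10:19015411-19015530, minus strand: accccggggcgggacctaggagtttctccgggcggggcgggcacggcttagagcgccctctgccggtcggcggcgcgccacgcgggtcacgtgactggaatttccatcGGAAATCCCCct
Rel, chr11:23770970-23771089, minus strand: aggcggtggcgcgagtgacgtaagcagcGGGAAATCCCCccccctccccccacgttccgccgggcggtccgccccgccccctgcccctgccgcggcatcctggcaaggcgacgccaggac
Nfkbie, chr17:45555580-45555699, plus strand: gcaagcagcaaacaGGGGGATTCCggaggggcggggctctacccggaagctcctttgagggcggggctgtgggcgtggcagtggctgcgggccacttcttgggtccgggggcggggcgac
Nfkbib, chr7:28766645-28766764, minus strand: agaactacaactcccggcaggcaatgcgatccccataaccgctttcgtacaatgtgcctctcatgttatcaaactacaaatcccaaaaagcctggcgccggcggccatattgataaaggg

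Between 51.8% and 53.8% of probes lay above background on each array, with limits from 106.3 to 115.6 intensity units. With 4 arrays, precision is limited by their number. After quantile normalisation the controls correlated at r = 0.992 across the 29399 probes tested, which are not independent replicates, and the lowest correlation of any other pair was 0.969. The labelled cell type was weakly marked, since the SIGN-R1 gene Cd209b read only 127 to 152 over the arrays. The receptor gene Ifnar1 was present in Ifnar-/- cells (191, controls 157 and 149), and as its probe's place in the disrupted gene was not analysed here, the genotype is not checked by it. It was lower after sLTβR-Fc (117; log2 -0.38, limma adjusted p = 0.0173). Of 3 Ifnar2 probes, the brightest read 248 in Ifnar-/- cells and 235 after sLTβR-Fc (controls 309 and 351; limma adjusted p = 0.13 and 0.0513), while in Ifnar-/- cells another lay between the controls and another above both. Ltbr, the receptor that the decoy copies, was not well above background in either control and at least 1.16-fold higher in each of the single arrays (limma adjusted p = 0.047 and 0.0427).

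Relb, Nfkbia and Tnfaip3 rose in Ifnar-/- cells, and Rel, Nfkbia, Nfkbib, Nfkbiz and Tnfaip3 rose after sLTβR-Fc. In Ifnar-/- cells 4 of the 10 probes tested were higher than the controls by limma with Benjamini-Hochberg adjustment over all probes, and 0 were lower. Of all probes tested, 4.60% were called higher in this comparison and 5.26% lower. After sLTβR-Fc 6 of the 10 were called higher and 0 lower, against 5.95% and 6.34% of all probes. Probes past 2-fold against both controls numbered 1 in Ifnar-/- cells (0.425% of all probes in that direction) and 3 after sLTβR-Fc (0.694%). By position alone, 9 of the 10 lay above both controls in Ifnar-/- cells (40.3% of all probes did) and 7 after sLTβR-Fc (40.0%). The 2 comparisons share their control arrays. The median log2 difference over the 10 probes was 0.54 and 0.61, against 0.0058 and -0.00066 over all probes tested. The single arrays have no replicate: limma took the spread from the control pair, with 1 residual degree of freedom, as if both conditions varied no more than that pair.

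**Figure D1:**
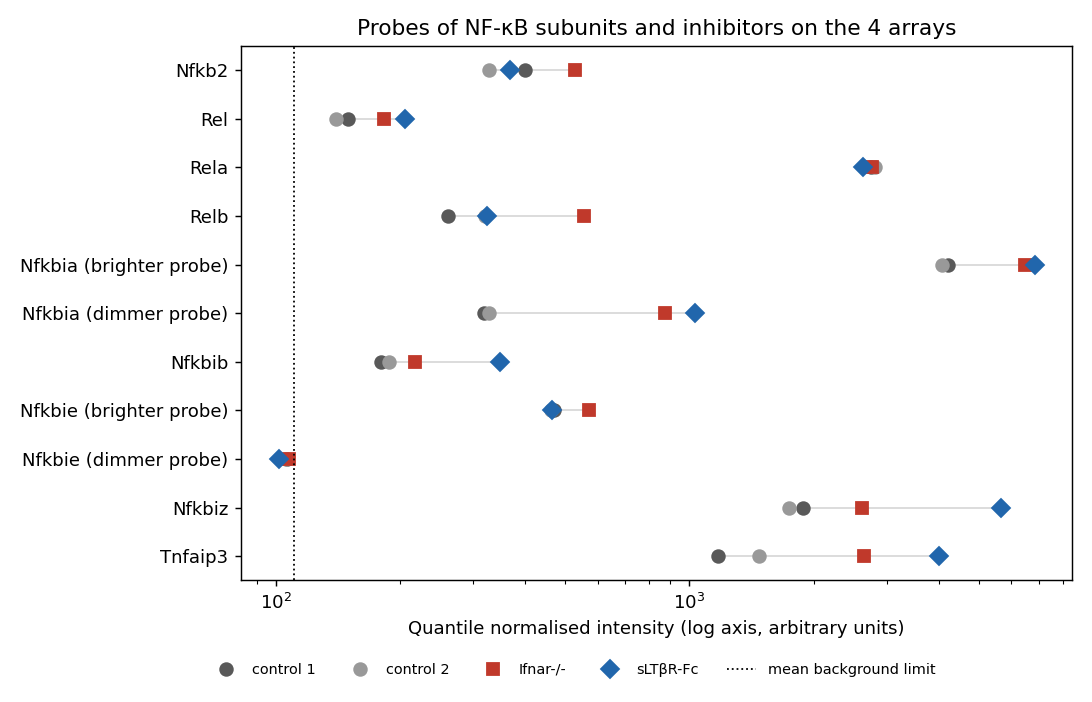
Quantile normalised intensity (log axis) of each of the 11 probes on the 4 arrays, coloured by group; each point is 1 array and the dotted line is the mean background limit. The Nfkbia, Nfkbiz and Tnfaip3 probes lie to the right of both controls on the other 2 arrays, the Relb probe does so most in Ifnar-/- cells, and the 4 Rela points lie close together.

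Among the subunits, Relb, the noncanonical partner of p52, stood apart in Ifnar-/- cells. It read 261 and 320 in the controls, 558 in Ifnar-/- cells and 324 after sLTβR-Fc. The Ifnar-/- value was the highest of the 4 arrays, and the sLTβR-Fc value lay just above that of control 2. Relb rose 1.93-fold in Ifnar-/- cells (log2 0.95 ± 0.19, SE; limma adjusted p = 0.000781) and this difference lay at the 99.3rd percentile of all probes tested. After sLTβR-Fc its difference was 0.16 (95% interval -0.22 to 0.55; adjusted p = 0.632).

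Nfkb2, whose p100 product is both an inhibitor of RelB and the precursor of p52, read 400 and 327 in the controls, 531 in Ifnar-/- cells and 369 after sLTβR-Fc. Its Ifnar-/- value was above both controls and its sLTβR-Fc value lay between them. The Ifnar-/- difference of log2 0.55 missed the threshold (limma adjusted p = 0.0734, interval 0.15 to 0.95), and the sLTβR-Fc difference was 0.029 (interval -0.37 to 0.43).

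Rel, which encodes c-Rel, a subunit prominent in lymphocytes and myeloid cells, was dim. It read 150 and 140 in the controls, 183 in Ifnar-/- cells and 205 after sLTβR-Fc. In the deposited values it was only 1.27 to 1.62 times the background limit, so its differences are understated. They also depend on the scaling: as deposited, the sLTβR-Fc difference was only log2 0.12. Both single arrays lay above both controls. Rel rose after sLTβR-Fc (log2 0.50 ± 0.12, limma adjusted p = 0.00394), while the difference in Ifnar-/- cells, 0.34, had an adjusted p of 0.0665.

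Rela, which encodes the main activating subunit p65, was the steadiest member after normalisation. It read 2749 and 2812 in the controls, 2756 in Ifnar-/- cells and 2629 after sLTβR-Fc. The Ifnar-/- value lay between the controls, and the sLTβR-Fc value below both. The log2 differences were -0.013 (interval -0.43 to 0.41) and -0.081 (interval -0.50 to 0.34), with limma adjusted p values of 0.984 and 0.85.

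Nfkbia encodes IκBα, the inhibitor that NF-κB induces to end its own response. Its brighter probe read 4210 and 4071 in the controls, 6455 in Ifnar-/- cells and 6831 after sLTβR-Fc. Its dimmer probe read 319 and 328 in the controls, 871 in Ifnar-/- cells and 1029 after sLTβR-Fc. On both probes the controls lay close together and both single arrays lay above them.

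Nfkbia rose in Ifnar-/- cells by 1.56-fold on the brighter probe (log2 0.64 ± 0.17, limma adjusted p = 0.0105) and by 2.69-fold on the dimmer one (log2 1.43 ± 0.21, adjusted p = 1.81e-05). After sLTβR-Fc the increases were 1.65-fold (log2 0.72, adjusted p = 0.00341) and 3.18-fold (log2 1.67, adjusted p = 1.85e-06). The probes agreed in direction and not in size: the log2 ratio of the dimmer to the brighter was -3.72 and -3.63 in the controls, -2.89 in Ifnar-/- cells and -2.73 after sLTβR-Fc. Their places in the transcript were not analysed here.

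Nfkbib encodes IκBβ, a slower-acting inhibitor that is not part of the rapid feedback. It read 180 and 188 in the controls, 217 in Ifnar-/- cells and 349 after sLTβR-Fc. It rose 1.89-fold after sLTβR-Fc (log2 0.92 ± 0.14, limma adjusted p = 3.88e-05) and differed by 0.24 in Ifnar-/- cells (interval -0.054 to 0.53, adjusted p = 0.363). Nfkbie, which encodes IκBε, read 471 and 463 in the controls, 573 in Ifnar-/- cells and 466 after sLTβR-Fc on its brighter probe. Its differences were 0.30 (interval -0.12 to 0.71) and -0.0022 (interval -0.42 to 0.42), neither past the threshold. The other Nfkbie probe was at 0.92 to 0.968 times the background limit and gave no fold.

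Nfkbiz encodes IκBζ, an inducible nuclear protein that acts mainly as a coactivator at secondary response genes such as Il6. It read 1883 and 1739 in the controls, 2611 in Ifnar-/- cells and 5669 after sLTβR-Fc. The sLTβR-Fc value was the highest by a wide margin. Nfkbiz rose 3.13-fold on that array (log2 1.65 ± 0.21, limma adjusted p = 1.65e-06). In Ifnar-/- cells its difference of 0.53 missed the threshold (adjusted p = 0.112, interval 0.11 to 0.95).

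Tnfaip3 encodes A20, a ubiquitin-editing enzyme that shuts off signalling upstream of IκB kinase. It read 1170 and 1477 in the controls, 2637 in Ifnar-/- cells and 4009 after sLTβR-Fc. Both single arrays lay above both controls, although the controls themselves stood 0.34 apart on the log2 scale, the widest gap of any member. Tnfaip3 rose 2.01-fold in Ifnar-/- cells (log2 1.00 ± 0.22, limma adjusted p = 0.00267) and 3.05-fold after sLTβR-Fc (log2 1.61 ± 0.22, adjusted p = 7.43e-06). Without control 2, Relb and Tnfaip3 also stood past 2-fold in Ifnar-/- cells, making 3 probes instead of 1, and without control 1 the count was 1.

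**Figure D2:**
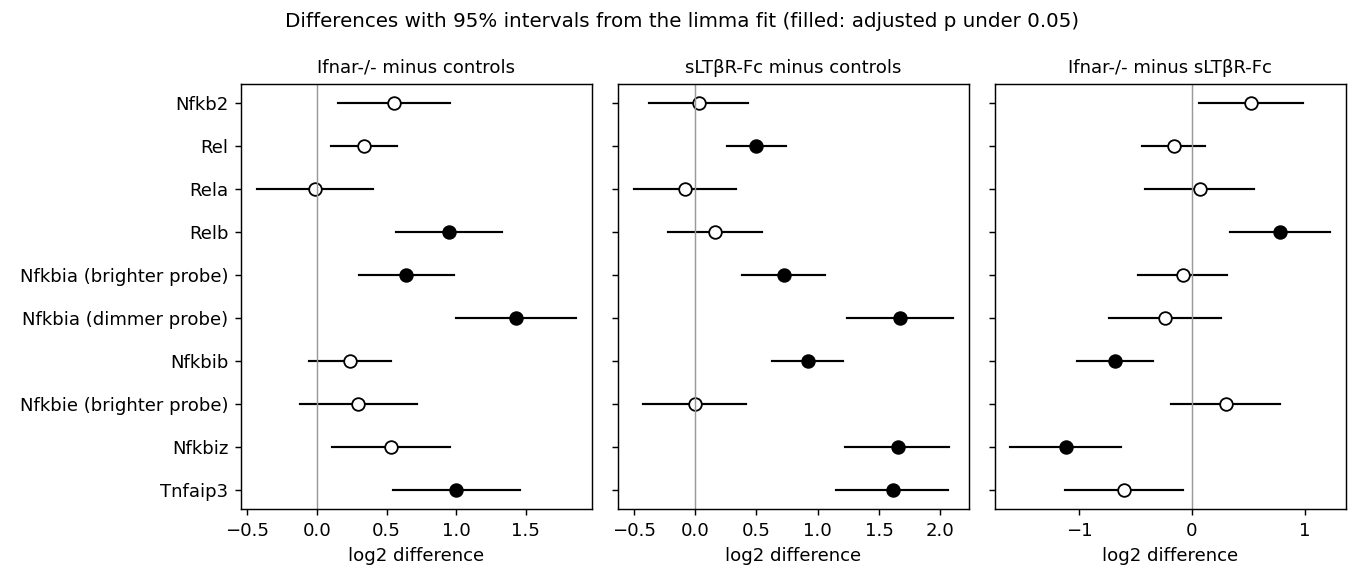
Log2 differences of the 10 probes tested with 95% intervals from the limma fit, for each single array against the controls and for the 2 single arrays against each other; filled points have an adjusted p under 0.05. Relb is filled against the controls in Ifnar-/- cells only (0.95) and Nfkbiz and Nfkbib after sLTβR-Fc only (1.65 and 0.92), and these 3 are also filled in the direct comparison.

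Whether a gene differed between the 2 single arrays was tested directly, in a contrast that does not use the control levels. By limma 1 of the 10 probes was higher in Ifnar-/- cells and 2 were higher after sLTβR-Fc, against 3.56% and 3.57% of all probes. Relb was 1.72-fold higher in Ifnar-/- cells than after sLTβR-Fc (log2 0.78 ± 0.22, adjusted p = 0.0225). Nfkbiz was 2.17-fold and Nfkbib 1.60-fold higher after sLTβR-Fc than in Ifnar-/- cells (log2 -1.12 ± 0.24 and -0.68 ± 0.17, adjusted p = 0.00255 and 0.00868). Nfkbiz was past 2-fold (1.11% of all probes were, in that direction). The 2 Nfkbia probes, at -0.082 (interval -0.48 to 0.31) and -0.24 (interval -0.74 to 0.26), and Tnfaip3, at -0.60 (adjusted p = 0.176), did not pass.

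Against the controls, Nfkbia, Nfkbib, Nfkbiz, Tnfaip3 and Rel kept their direction under every scaling tried. Nfkb2 and Relb did so in Ifnar-/- cells and not after sLTβR-Fc. The single arrays were dimmer over their brighter probes, with upper quartiles of 156 and 146 against 188 and 179 in the controls, so the choice of scaling shifts every difference. In the values as deposited, the median of all probes was -0.14 in Ifnar-/- cells and -0.18 after sLTβR-Fc. The dimmer Nfkbia probe, Nfkbiz and Tnfaip3 stood at 1.16, 1.27 and 1.17 above that median after sLTβR-Fc. Nfkbib and Rel stood at 0.54 and 0.295 above it on that array, with deposited differences of only 0.36 and 0.12. In Ifnar-/- cells the dimmer Nfkbia probe, Tnfaip3 and Relb stood at 1.28, 0.79 and 0.82 above the median. After sLTβR-Fc Relb and Nfkb2 turned to lower in the deposited values (log2 -0.43 and -0.60) and under median and upper quartile scaling. In the deposited values only, Rela (-0.73, limma adjusted p = 0.0185), Nfkb2 (adjusted p = 0.0341) and Nfkbie (-0.66, adjusted p = 0.0274) were called lower on that array. Against the median of all probes in those values they stood at -0.55, -0.43 and -0.48.

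**Figure D3:**
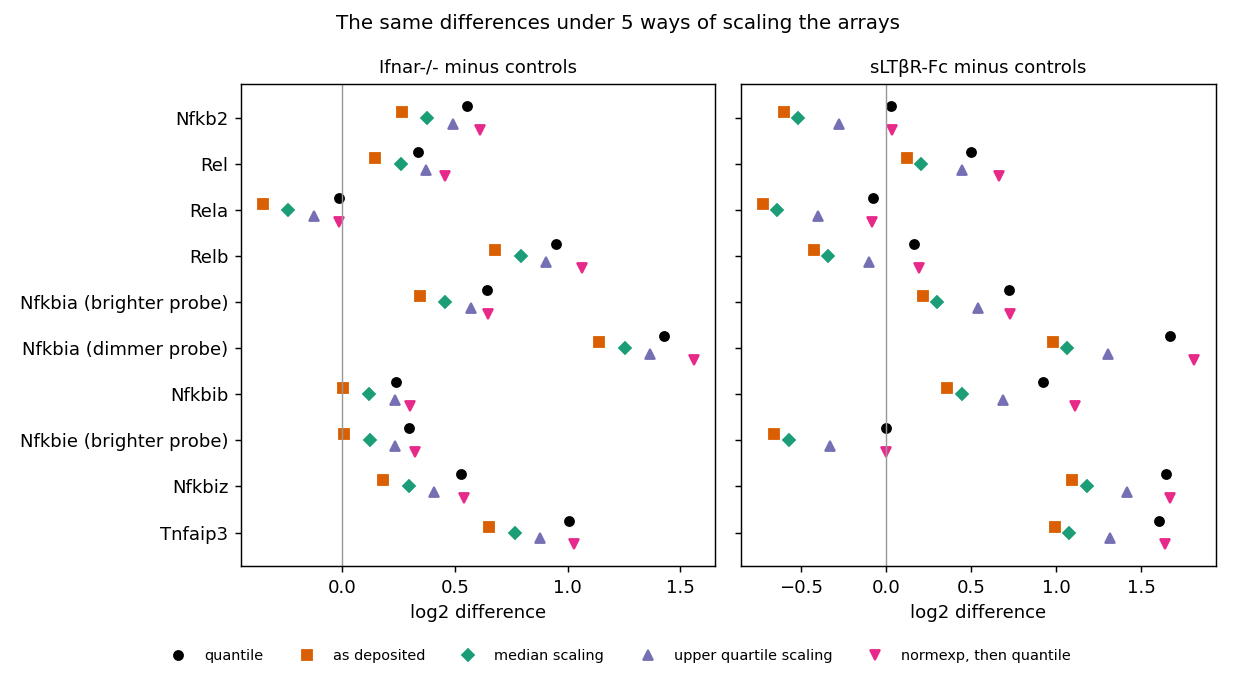
Log2 differences of the 10 probes tested under 5 ways of scaling the arrays, for the Ifnar-/- array (left) and the sLTβR-Fc array (right) against the controls. Nfkbia, Nfkbib, Nfkbiz and Tnfaip3 stay above 0 in both panels, while Nfkb2 and Relb lie on either side of 0 after sLTβR-Fc.

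The calls rest on how limma shares the spread between probes. Over 9 settings with a test, the dimmer Nfkbia probe was called higher in 8 on each array, Relb in 8 in Ifnar-/- cells, and Nfkbiz and Tnfaip3 in 8 after sLTβR-Fc. Tnfaip3 and the brighter Nfkbia probe in Ifnar-/- cells were called in 6, as were Nfkbib and the brighter Nfkbia probe after sLTβR-Fc, and Rel on that array in 5. Between the single arrays, Relb and Nfkbiz were called in 7 and Nfkbib in 4. The setting that called none raised all dim values to the background limit. It left many probes without any spread between the controls, and 0 of 29399 probes passed limma's adjusted threshold in any comparison. At an unadjusted p under 0.05 there were 5598 and 6592 probes in the comparisons with the controls, among them 5 and 6 of the 10 described here, and 6345 between the single arrays, with 2 of the 10.

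Other genes of the pathway gave the setting, each taken by its brightest probe; of all 14637 genes tested, 5.31% were called higher and 5.58% lower in Ifnar-/- cells, and 7.44% and 5.56% after sLTβR-Fc. Among 10 IκB-like and cofactor genes, 2 were higher and 1 lower in Ifnar-/- cells and 1 was higher after sLTβR-Fc. Nfkbid, a nuclear IκB induced by NF-κB, read 773 and 621 in the controls, 1296 in Ifnar-/- cells and 1162 after sLTβR-Fc (log2 0.90 and 0.75, limma adjusted p = 0.00999 and 0.0331). Bcl3, a nuclear IκB that binds p52 and p50 dimers, was higher in Ifnar-/- cells (log2 0.37, adjusted p = 0.0495) and at -0.18 after sLTβR-Fc. Nfkbil1 was lower in Ifnar-/- cells (log2 -0.38, adjusted p = 0.0324).

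Of 17 genes of the IκB kinase complex and its activators, 2 were higher in Ifnar-/- cells, the kinase gene Ikbke (log2 0.41) and Rbck1 of the linear ubiquitin ligase (0.41). After sLTβR-Fc 2 were lower, Tab3 (log2 -0.59) and Tradd (-0.39), adaptors of cytokine receptor signalling. Map3k14, which encodes NIK, read 347 and 382 in the controls, 523 in Ifnar-/- cells and 374 after sLTβR-Fc (limma adjusted p = 0.0864 and 0.929). Of 15 further brake genes, 1 was lower in Ifnar-/- cells, the interferon-induced Usp18 (log2 -1.87), whose controls read 352 and 598. After sLTβR-Fc Zc3h12a, which encodes the RNase Regnase-1, was higher (log2 0.80), Itch was lower (-0.55), and Traf2, not well above background there, was at least 1.60-fold lower. The medians of these 3 lists were 0.25, 0.20 and 0.12 in Ifnar-/- cells and -0.068, -0.081 and 0.045 after sLTβR-Fc, against 0.015 and 0.018 over all genes. As deposited, all 6 medians were below 0.

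Of 39 canonical target genes tested, 15 were higher and 2 lower in Ifnar-/- cells (median log2 0.35), and 14 were higher and 3 lower after sLTβR-Fc (median 0.12). The highest on both were the cytokine gene Il6 (log2 1.69 and 2.97), Junb (1.63 and 2.16), Ier3 (1.17 and 2.61), and the chemokine genes Ccl3 (1.13 and 2.20) and Ccl4 (0.98 and 1.77). Junb and Ier3 are also immediate early genes and stand on that list too. The lower ones were Vcam1 (-1.78, controls 1344 and 486) and Tnfaip2 (-0.81) in Ifnar-/- cells, and Ccr7 (-0.71), Cd40 (-0.68) and Ccl5 (-0.60) after sLTβR-Fc. Vcam1 also stands on the splenic macrophage list described below, and Ccr7 on the T cell and dendritic cell lists. Between the single arrays 6 of the 39 were called higher in Ifnar-/- cells and 9 higher after sLTβR-Fc, against 3.53% and 4.63% of all genes. Those higher in Ifnar-/- cells were the chemokine gene Ccl5 (log2 1.25), the survival genes Bcl2a1b (1.00) and Bcl2a1d (0.93), and the activation genes Cd40 (1.00), Cd83 (0.92) and Il2ra (0.41). Those higher after sLTβR-Fc were the chemokine genes Cxcl2 (-2.16), Ccl3 (-1.07) and Ccl4 (-0.79), with Vcam1 (-1.68), Ier3 (-1.44), Il6 (-1.28), Cd69 (-1.22), Ptgs2 (-0.86) and Tnfaip2 (-0.77). The Bcl2a1 genes are near-identical copies whose probes may not tell them apart.

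Of 12 noncanonical target genes listed, 8 were tested, of which 1 was lower in Ifnar-/- cells and 2 were higher after sLTβR-Fc. Tnfsf11, which encodes RANKL, was lower in Ifnar-/- cells (log2 -0.53). After sLTβR-Fc Icosl, a T cell costimulator gene, was higher (0.48), and so was the B cell chemokine gene Cxcl13 (0.37), which read 111 and 104 in the controls and 139 on that array, close to background.

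**Figure D4:**
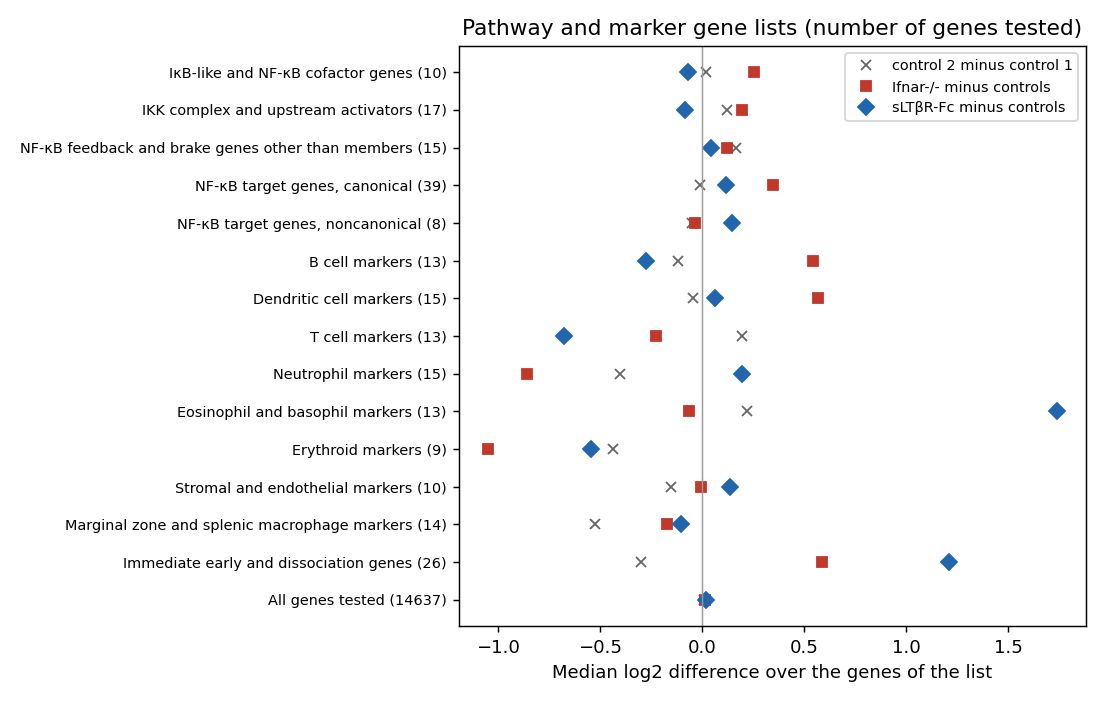
Median log2 difference over the genes of each pathway and marker list, with the number of genes tested in parentheses, for the Ifnar-/- array (squares), the sLTβR-Fc array (diamonds) and control 2 against control 1 (crosses). B cell and dendritic cell markers stand at 0.54 and 0.57 in Ifnar-/- cells, and eosinophil and basophil markers and immediate early genes at 1.74 and 1.21 after sLTβR-Fc.

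Markers of other cells moved with these results, and in pooled sorted cells a change in cell mixture and a change in RNA per cell cannot be told apart. In Ifnar-/- cells, where Relb rose, 12 of 13 B cell markers and 10 of 15 dendritic cell markers lay above both controls. Of all genes, 42.7% did. Whether the I-Ab- gate removed B cells and dendritic cells was not tested. The summed intensity of the B cell markers was 22392 and 21044 in the controls, 31137 in Ifnar-/- cells and 15035 after sLTβR-Fc, and that of the dendritic cell markers 14846 and 14307, 18943, and 13866 on the same arrays. Among the dendritic cell genes, Batf3 read 131 and 153 in the controls, 356 in Ifnar-/- cells and 253 after sLTβR-Fc. Zbtb46 read 152 and 148 in the controls, 306 in Ifnar-/- cells and 209 after sLTβR-Fc, and both genes were called higher on both arrays. They were the only dendritic cell markers called higher after sLTβR-Fc, where Ccr7 (log2 -0.71) was called lower. Of the 15 dendritic cell markers, 5 lay above both controls on that array and 4 below (median log2 0.064). Of all genes, 43.7% lay above both there. The part of these cells in the Relb result was not tested.

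Where Nfkbiz, Tnfaip3 and Nfkbia rose after sLTβR-Fc, 12 of 13 eosinophil and basophil markers lay above both controls (43.7% of all genes did), including the granule gene Epx (426 and 550 in the controls, 3473 after sLTβR-Fc). Their summed intensities were 15834 and 20140 in the controls, 12529 in Ifnar-/- cells and 61654 after sLTβR-Fc. Neutrophil markers summed to 60363 and 42334 in the controls, 22223 in Ifnar-/- cells and 91513 after sLTβR-Fc. In Ifnar-/- cells 13 of 15 lay below both controls and 1 above (median log2 -0.86). Of all 14637 genes, 5150 lay below both there. After sLTβR-Fc 8 of 15 lay above both controls and 3 below (median log2 0.20). The largest of those called higher on that array were Elane (log2 2.51), Prtn3 (1.88), Ctsg (1.39), Csf3r (1.27) and S100a8 (0.93). Ltf (0.0044) and Camp (-0.27) were among those not called. Whether the CD11b low and F4/80- gate removed neutrophils, eosinophils, their precursors or basophils was not tested. Immediate early genes, which also respond to tissue dissociation, had 18 of 26 members above both controls in Ifnar-/- cells and 19 of 26 after sLTβR-Fc, with sums of 60309 and 48673 in the controls, 75043 in Ifnar-/- cells and 98454 after sLTβR-Fc. The part of these cells and of dissociation in the inhibitor results was not tested.

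Further marker lists moved as well. T cell markers lay below both controls in 13 of 13 genes after sLTβR-Fc, with 6 called lower. In Ifnar-/- cells 9 of 13 did, with 4 called lower. Of all 14637 genes tested, 5230 lay below both controls after sLTβR-Fc and 5150 in Ifnar-/- cells, with 5.56% and 5.58% called lower. Of 14 markers of marginal zone and other splenic macrophages, 6 were called lower and 1 higher in Ifnar-/- cells, among them the iron exporter gene Slc40a1 (log2 -1.94) and the kinase gene Axl (-1.48), and 1 was called lower after sLTβR-Fc. The marker called higher in Ifnar-/- cells was Adgre1, the gene of a macrophage antigen that the sorting gate excludes. Adgre1 lay above background on all arrays. It read 629 and 306 in the controls, 1017 in Ifnar-/- cells (log2 1.21) and 631 after sLTβR-Fc (log2 0.52, not called). Whether cells with this antigen passed the gate was not tested. The controls themselves differed in the 14 markers, by a median log2 of -0.52 for control 2 against control 1. Erythroid markers were called lower in 5 of 9 genes in Ifnar-/- cells and 4 of 9 after sLTβR-Fc. Their part in the results for the NF-κB genes was not tested.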

How the data were processed

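RNA was extracted with Trizol and labelled with an Ambion MessageAmp kit for Illumina arrays, per the labels' protocols; GenomeStudio 2011.1 is named in the submitters' processing notes. The authors deposited 1 linear intensity per probe and array, with background subtraction and scaling not given in the sources used here. Scanner files and detection p-values were not used.

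Genes were named through the platform annotation (34885 of 45281 probes with 1 symbol, 18 with several, 10378 with none). The background limit of an array was its most frequent intensity plus the 95% point of noise mirrored about it. Values were quantile normalised and put on a log2 scale without a floor, since a floor left many probes identical on both controls. The 29399 probes above the limit on at least 1 array were fitted in limma 3.58.1 (R 4.3.3) as 3 group means, with a mean-variance trend (prior of 28.69 degrees of freedom), and p-values were adjusted by Benjamini-Hochberg to 0.05. A rule of size asked for 2-fold against both controls. The scripts were tested on simulated data. Differences understate those of dim probes, because background remains in the values.

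Whether the control arrays came from different mice is not in the labels; the p-values rest on the spread of that pair alone, which may be technical. All member probes are described; list genes are named when called or past 2-fold, at most 5 per list and direction, as are Ltbr, Ifnar1, Ifnar2, Map3k14, Bcl3 and Nfkbid. Genes named from the direct comparison alone, and the marker genes named, were chosen after their values were seen. The members, the lists and the choice against a floor were made with earlier results of these data known. A stricter κB motif was also searched and is not reported here, and protein sequences were not analysed here.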

Additional observations from a re-analysis of the deposited data

How the results depend on the processing

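The calls depend on scaling and on the variance model more than the directions do. With a floor at the background limit, 0 probes and 0 members were called in each of the 3 comparisons. In the values as deposited, members called on the Ifnar-/- array fell from 4 to 2, members past 2-fold on the sLTβR-Fc array from 3 to 0, Nfkb2 turned to -0.60 on that array, and all calls numbered 4900 (384 higher, 4516 lower) and 9397 (272 higher, 9125 lower), against 2898 (1351 higher, 1547 lower) and 3611 (1748 higher, 1863 lower). Median scaling gave 2, 3 and 1 members called on the Ifnar-/- array, the sLTβR-Fc array and between them, and 1772 (390 higher, 1382 lower), 5013 (341 higher, 4672 lower) and 1074 calls. Upper quartile scaling gave 8043 calls on the sLTβR-Fc array (4872 higher, 3171 lower) and 2 members past 2-fold in the direct comparison. Of calls between the single arrays, 1048 of 2099 were higher on the Ifnar-/- array, 1374 of 1742 as deposited, 856 of 1074 under median and 1224 of 1755 under upper quartile scaling. Without a trend, calls numbered 1485, 1501 and 739, with 1 member in the direct comparison. Leaving out a control gave 1 to 3 members past 2-fold on the Ifnar-/- array and 3 to 3 on the sLTβR-Fc array. The cause was not tested, except that the floor lowers the prior to 0.8332 degrees of freedom. No paired analysis was possible because the labels record no pairing and the Ifnar-/- and sLTβR-Fc groups have 1 array each. Background in the values limits what Rel and Nfkbib, the dimmest members tested, can show.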

Other observations

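A comparison chosen after the values were seen set each member against the Rela probe of the same array, in the intensities as deposited, so that a scaling factor common to an array drops out. Relative to Rela, the log2 change from the control mean was 1.82 for Nfkbiz, 1.72 for Tnfaip3, 1.71 and 0.94 for the dimmer and the brighter Nfkbia probe, 1.09 for Nfkbib and 0.85 for Rel on the sLTβR-Fc array. On the Ifnar-/- array it was 1.49 and 0.70 for the Nfkbia probes, 1.03 for Relb, 1.00 for Tnfaip3, 0.62 for Nfkb2, 0.54 for Nfkbiz and 0.50 for Rel. The ratio of Relb to Rela was 0.30 above the control mean on the sLTβR-Fc array and above both controls, which differed by 0.33. That of Nfkb2 was 0.12 above the mean, within the range of the controls. Rela itself stood at -0.55 against the median of all probes on that array and -0.21 on the Ifnar-/- array, which raises these ratios. Against that median Relb and Nfkb2 stood at -0.25 and -0.43 on the sLTβR-Fc array. The ratios to Rela show unequal change within an array and not which gene of a pair changed.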
